A study of Mus musculus with 42 samples.

Results

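The genes described here encode the nuclear subunits of respiratory complexes II, III, IV and V and cytochrome c, measured in liver of female APOE*3-Leiden mice. They were chosen by name: a protein-coding gene was taken when its symbol begins with Uqcr, Cox4, Cox5, Cox6, Cox7, Cox8 or Atp5, or is Cyc1, Cycs, Sdha, Sdhb, Sdhc or Sdhd, and when it had at least 10 counts in at least 10 of the 42 mice. Of the 54446 genes in the table, 50 met the names and 46 also met the counts, with 4 genes for complex II, 9 for complex III, 1 for cytochrome c, 14 for complex IV and 18 for complex V. The 46 genes carry 45 symbols, because Atp5o stands under 2 identifiers. Uqcc2 and other assembly factors, complex I and the subunits encoded in mitochondrial DNA fall outside these names.

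All 42 mice carried the human APOE*3-Leiden transgene, which slows the clearance of lipoproteins, and all were sampled at 32 weeks, with 1 sequencing library of polyadenylated liver RNA per mouse. The 10 Chow mice ate ordinary chow throughout, and their age at the start is not given in the sources used here. The 16 WTD mice entered at 8 to 14 weeks of age and ate a Western type diet with 1% cholesterol, 15% cocoa butter and 40.5% sucrose, first for a run-in of 3 weeks and then to the endpoint, with 0.05% sodium cholate added from week 22. The 16 WTD+Atorvastatin mice had the same diet, with atorvastatin mixed in after the run-in, at 3.0 mg/kg/day and from week 5 at 4.5 mg/kg/day. Thus WTD against Chow gives the diet, cholate included, and WTD+Atorvastatin against WTD gives the drug on that diet. These 2 comparisons share the WTD mice, and no chow-fed group received the drug. The mouse labels form 1 series for the Chow mice and another for all WTD-fed mice, so whatever goes with these series cannot be told apart from the diet.

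Complex II, succinate dehydrogenase, passes electrons from succinate to ubiquinone and is also an enzyme of the TCA cycle. Complex III takes electrons from ubiquinol to cytochrome c, and complex IV, cytochrome c oxidase, hands them to oxygen. Both pump protons across the inner mitochondrial membrane, and complex V, the ATP synthase, uses the gradient to make ATP. In liver this chain takes up the electrons of fatty acid oxidation. Complexes III to V are assembled from nuclear and mitochondrially encoded subunits, while complex II is nuclear only.

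Counts on genes summed to between 15661381 and 36224054 per mouse. Levels are given as CPM, the counts of a gene relative to the TMM-scaled library total, and a gene was called when the quasi-likelihood test of edgeR gave a Benjamini-Hochberg adjusted p under 0.01 over all 15574 tested genes. In 9 libraries (3 Chow, 5 WTD and 1 WTD+Atorvastatin) over 20% of weakly expressed genes lacked any count, and below these are named the sparse libraries. Chow replicate 1 held transcripts of striated muscle, with 820 CPM of the muscle actin Acta1 against at most 0.843 CPM in any of the other mice. Its B cell markers summed to 1413 CPM, against 11.8 to 51.1 in the other Chow mice. WTD replicate 15 also stood apart in its group, with hepatocyte markers at 119180 CPM (others 59767 to 82152), lipid-associated macrophage markers at 496 (others 1148 to 1882) and cholangiocyte markers at 183 (others 433 to 843). The liver itself was well marked in each group: 12 hepatocyte transcripts such as albumin (Alb) summed to 124320 to 179472 CPM on chow, 59767 to 119180 on WTD and 71186 to 143018 with atorvastatin.

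Most of the nuclear subunit genes were lower on WTD than on chow. Of the 46 members, 44 passed the filter on low counts, and of these 37 were lower and 1 was higher on WTD, where 16% of all tested genes were lower and 17.5% higher. The median log2 fold change was −0.54, a level 31.1% lower, while the median of all tested genes was 0.03. The summed level of all 46 members ranged from 7662 to 9944 CPM on chow (median 8830, n = 10), from 5532 to 7693 on WTD (median 6343, n = 16) and from 5538 to 8521 with atorvastatin (median 6910, n = 16). The highest WTD mouse, replicate 15, only just reached the lowest Chow mouse, and without it the WTD mice went up to 7576 CPM. Both WTD-fed groups overlapped widely. Every tested gene of complex III was lower on WTD, 9 of 9, and so were 3 of 4 in complex II, 9 of 13 in complex IV, 15 of 17 in complex V and cytochrome c.

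Atorvastatin moved few of them. Compared with WTD, 2 members were higher with atorvastatin, Uqcrc1 and Sdha, and none was lower, where 4.84% of all tested genes were higher and 2.26% lower. At an unadjusted p under 0.05, 15 members differed, where 24.5% of all tested genes did, and DESeq2 called 2 members higher and 0 lower, where 4.46% of all genes were higher and 4.3% lower. Under limma-voom with sample quality weights 11 of the 44 members were higher and 0 lower, namely Sdha, Sdhc, Sdhd, Uqcrc1, Uqcrc2, Uqcrfs1, Cyc1, Cox8a, Atp5a1, Atp5b and Atp5g1. This test also called more of all genes, 11.7% higher and 8.34% lower. Its median log2 fold change was 0.12 for the members and 0.03 for all genes. In the edgeR test the median log2 fold change of the 44 members was 0.02, and that of all genes 0.00. Against chow the atorvastatin-treated mice still had 34 members lower and 0 higher, with a median of −0.53, where 10.7% of all tested genes were lower and 14.2% higher. Among the 37 members that were lower on WTD, 23 had an estimated level above WTD with the drug and 14 one below it. The 3 members that were lower on WTD but not called against chow with atorvastatin were Sdhd, Atp5a1 and Atp5b.

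**Figure D1:**
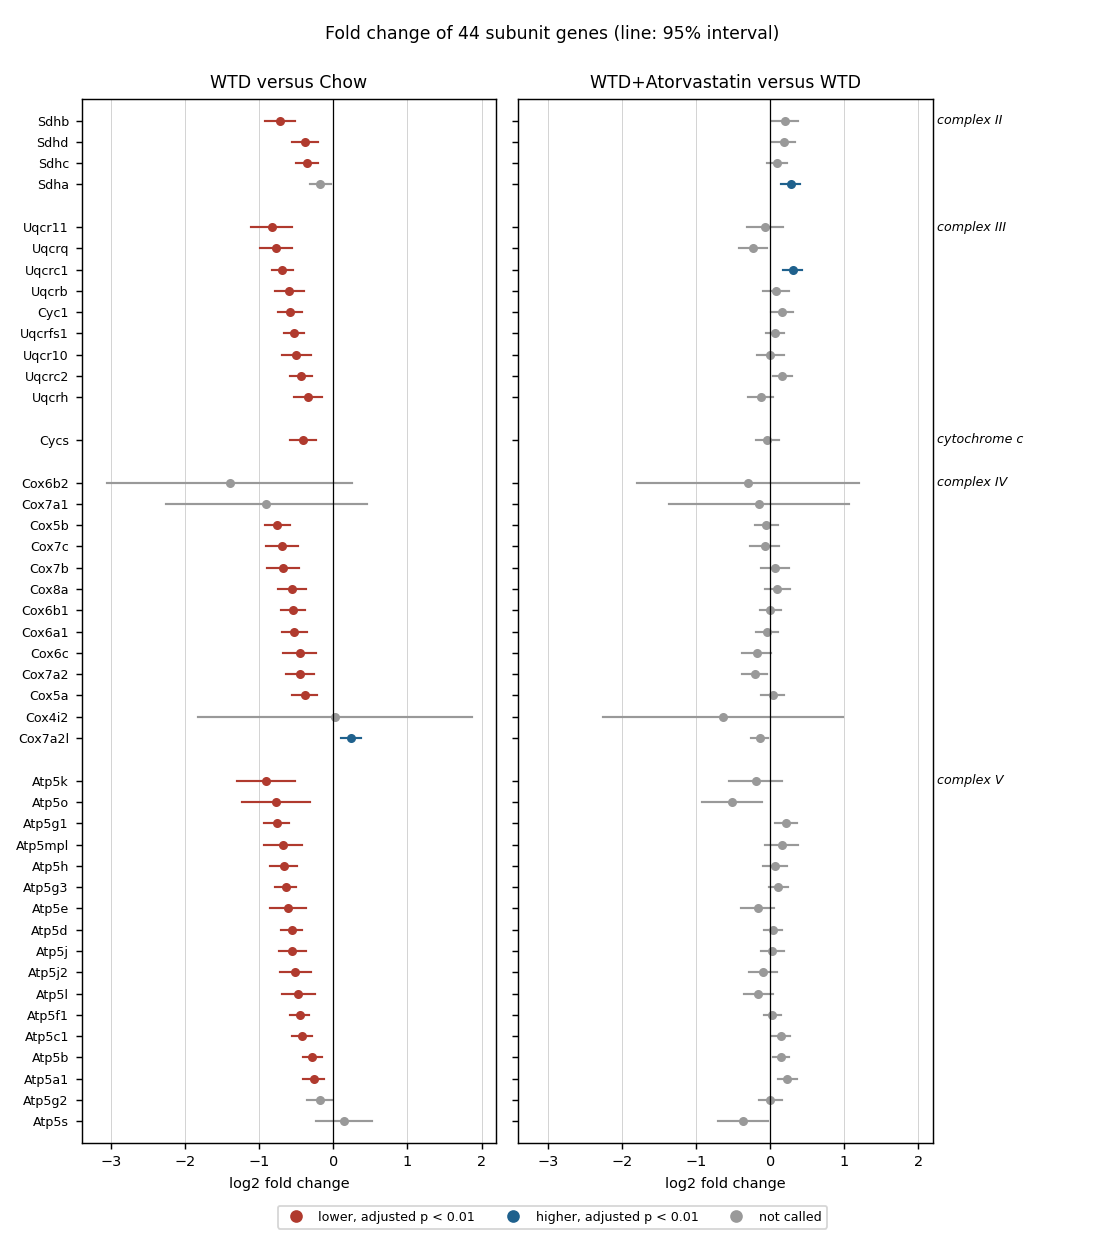
Log2 fold change (x axis) of the 44 tested subunit genes (y axis, grouped by complex) for WTD against Chow and for WTD+Atorvastatin against WTD. Points are edgeR estimates and lines their 95% intervals. Red marks 37 genes called lower, blue the 3 calls of a higher level (Cox7a2l on the left, Sdha and Uqcrc1 on the right) and grey the genes not called.

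Many promoters of this family hold sites for NRF1, for the ETS factor GABPA, for YY1 and for the oestrogen-related receptors, which is textbook background for why their start regions are shown. RefSeq promoter windows on GRCm38.p6, with 250 bases before and 50 after the start, were matched for 33 of the 46 members. On either strand the letters GCATGCGC (core of the NRF1 site) stood in 8 of the 33 windows, 24.2%, against 2.71% of all 32851 windows and 4.52% of the 14706 windows of genes tested here. CCGGAA (ETS) stood in 15 windows, 45.5%, against 14.9% of all and 24.5% of those of tested genes. AAGGTCA (the oestrogen-related receptors) stood in 5, 15.2%, against 4.72% and 3.62%, and AAGATGG (YY1) in 2, 6.06%, against 6.34% and 6.64%. The NRF1 core can read on both strands at overlapping places, as it does in Uqcrc1. Such a match is a run of letters, and binding was not measured.

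The 7 windows below belong to the member of smallest p on WTD in each complex and cytochrome c (Sdhb, Uqcrc1, Cycs, Cox5b, Atp5g1), to Sdha, which like Uqcrc1 was higher with atorvastatin, and to Cox7a2l, which was higher on WTD. They are written 5′ to 3′ along the gene, with matches to the 4 motifs in capitals. The coordinates are chr9:108936398-108936697 (plus strand) for Uqcrc1, chr13:74350191-74350490 (minus) for Sdha, chr4:140961021-140961320 (plus) for Sdhb, chr17:83514284-83514583 (minus) for Cox7a2l, chr6:50566520-50566819 (minus) for Cycs, chr1:36691237-36691536 (plus) for Cox5b and chr11:96075582-96075881 (minus) for Atp5g1.
Uqcrc1: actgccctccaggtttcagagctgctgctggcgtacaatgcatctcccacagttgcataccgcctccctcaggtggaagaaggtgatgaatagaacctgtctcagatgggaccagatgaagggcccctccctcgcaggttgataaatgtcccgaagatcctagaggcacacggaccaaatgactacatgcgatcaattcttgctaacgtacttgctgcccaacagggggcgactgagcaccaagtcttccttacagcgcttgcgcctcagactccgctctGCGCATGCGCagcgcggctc
Sdha: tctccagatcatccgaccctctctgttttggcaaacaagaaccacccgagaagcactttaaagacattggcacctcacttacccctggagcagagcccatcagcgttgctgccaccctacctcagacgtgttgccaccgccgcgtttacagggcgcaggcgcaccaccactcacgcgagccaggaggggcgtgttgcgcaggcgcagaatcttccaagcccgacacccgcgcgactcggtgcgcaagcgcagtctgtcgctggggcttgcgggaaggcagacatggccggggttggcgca
Sdhb: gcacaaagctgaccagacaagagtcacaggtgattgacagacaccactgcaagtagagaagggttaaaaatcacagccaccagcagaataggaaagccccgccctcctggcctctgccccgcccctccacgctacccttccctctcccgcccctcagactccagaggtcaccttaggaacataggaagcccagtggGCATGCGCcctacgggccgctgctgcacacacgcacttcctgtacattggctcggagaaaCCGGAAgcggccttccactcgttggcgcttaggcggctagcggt
Cox7a2l: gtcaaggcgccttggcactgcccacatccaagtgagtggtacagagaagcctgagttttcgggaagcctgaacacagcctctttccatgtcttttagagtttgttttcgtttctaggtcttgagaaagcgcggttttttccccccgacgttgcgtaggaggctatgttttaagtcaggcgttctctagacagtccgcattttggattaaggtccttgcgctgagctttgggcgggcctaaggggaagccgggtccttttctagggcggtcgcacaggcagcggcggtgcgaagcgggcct
Cycs: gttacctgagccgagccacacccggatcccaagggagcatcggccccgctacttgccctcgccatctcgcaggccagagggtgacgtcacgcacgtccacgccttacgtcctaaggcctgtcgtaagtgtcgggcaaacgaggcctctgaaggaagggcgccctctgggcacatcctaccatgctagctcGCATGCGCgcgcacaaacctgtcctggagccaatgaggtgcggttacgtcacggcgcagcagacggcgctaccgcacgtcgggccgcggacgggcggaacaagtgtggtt
Cox5b: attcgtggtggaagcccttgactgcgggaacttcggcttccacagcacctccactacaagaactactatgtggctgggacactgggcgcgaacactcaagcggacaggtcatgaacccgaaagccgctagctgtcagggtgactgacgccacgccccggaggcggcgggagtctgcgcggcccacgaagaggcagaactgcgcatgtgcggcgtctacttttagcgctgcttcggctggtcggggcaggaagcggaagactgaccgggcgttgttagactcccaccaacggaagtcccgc
Atp5g1: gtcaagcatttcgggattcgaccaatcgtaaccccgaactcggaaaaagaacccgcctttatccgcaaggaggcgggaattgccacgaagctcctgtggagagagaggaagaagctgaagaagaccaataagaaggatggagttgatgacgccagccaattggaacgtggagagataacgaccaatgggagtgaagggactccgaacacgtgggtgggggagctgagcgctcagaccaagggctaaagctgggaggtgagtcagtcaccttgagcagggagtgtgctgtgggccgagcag
Sdhb, Uqcrc1 and Cycs hold the NRF1 core and Sdhb also the ETS letters. No match was found in the windows of Sdha, Cox5b, Atp5g1 and Cox7a2l. Of the 28 members with a window that were lower on WTD, 20 had a match and 8 had none. Over all 33 member windows 21 had a match (63.6%), against 34.7% of the windows of tested genes. Whether a match goes with the fall on WTD was not tested. In addition, the RefSeq start of Cox7a2l lies 2997 bases from the outermost start of the gene in GENCODE. The end of its window was still found in a GENCODE transcript of Cox7a2l. This held for 28 of the 33 windows, but not for that of Cycs.

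Within complex II 3 of the 4 subunits were lower on WTD, and Sdha was not called. Sdha, the flavoprotein that oxidises succinate, ranged from 439 to 520 CPM on chow (median 480), from 308 to 574 on WTD (median 427) and from 426 to 599 with atorvastatin (median 522). On WTD 12 of 16 mice lay below the lowest Chow mouse, but 1 lay above the highest. The log2 fold change of Sdha was −0.18 (SE 0.074, adjusted p = 0.046), which did not pass the threshold. Sdha was called lower under limma-voom (−0.21, adjusted p = 0.0075) and without WTD replicate 15 (−0.21, adjusted p = 0.0097). With atorvastatin Sdha was higher than on WTD by 0.28 on the log2 scale (SE 0.065, adjusted p = 0.0022), or 21.2%, and 15 of 16 treated mice lay above the WTD median. Against chow the treated mice differed by 0.10 (SE 0.074, adjusted p = 0.32).

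Sdhb, the iron-sulphur subunit, had the lowest log2 fold change of the 4. Its level was 202 to 319 CPM on chow (median 251), 111 to 226 on WTD (median 149) and 124 to 255 with atorvastatin (median 178). All WTD mice but 1 lay below every Chow mouse, and Sdhb fell by 39.5%, with a log2 fold change of −0.72 (SE 0.10, adjusted p = 4.2e-08). With atorvastatin the estimate was 0.20 above WTD (adjusted p = 0.16). Sdhc and Sdhd, the membrane anchors, fell by 21.9% (adjusted p = 0.00015) and 23.4% (adjusted p = 0.00031) on WTD. The 4 estimates with atorvastatin against WTD were all above 0, with a median of 0.19, though only that of Sdha passed the test. Summed over complex II, the level was 1111 ± 56.8 CPM on chow (SD, n = 10), 869 ± 117 on WTD (n = 16) and 1010 ± 133 with atorvastatin (n = 16).

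**Figure D2:**
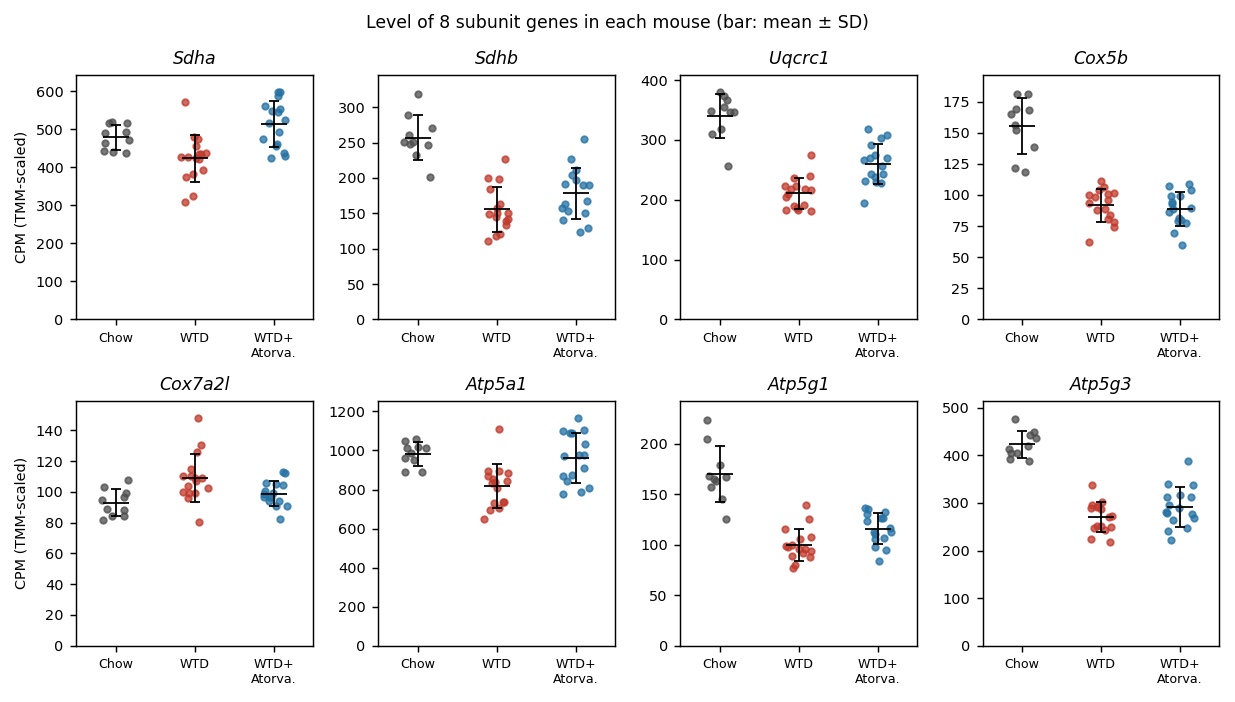
Level of 8 subunit genes in each of the 42 mice (y axis, TMM-scaled CPM from 0) by group (x axis), with the mean and SD as a bar. Cox5b and Atp5g3 have WTD mice all below the Chow mice, Uqcrc1 and Sdha lie higher with atorvastatin than on WTD, and Cox7a2l is the one with a higher mean on WTD than on chow.

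Complex III fell as a whole on WTD. Uqcrc1, a core subunit facing the matrix, had the smallest p of the complex and ranged from 256 to 380 CPM on chow (median 348), from 181 to 274 on WTD (median 212) and from 194 to 318 with atorvastatin (median 262). The WTD mice lay below every Chow mouse in 15 of 16 cases, and 15 of 16 treated mice lay above the WTD median. The fall on WTD was 0.69 on the log2 scale (SE 0.073, adjusted p = 2.8e-11), or 38.0%. With atorvastatin the level was 0.30 higher than on WTD (SE 0.065, adjusted p = 0.00090), or 23.3%, and it was still 0.39 below chow (SE 0.074, adjusted p = 3.1e-05). Hence Uqcrc1 was the only subunit gene called in all 3 comparisons under this test.

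Uqcrc2, the partner core subunit, fell by 0.44 on WTD (SE 0.076, adjusted p = 3.2e-06) and stood 0.17 above WTD with the drug (adjusted p = 0.10). The redox carriers fell alike in size: Cyc1, cytochrome c1, by 33.6% (adjusted p = 3.9e-08) and Uqcrfs1, the Rieske iron-sulphur protein, by 30.8% (adjusted p = 6.8e-09). With atorvastatin all 16 mice lay below every Chow mouse for Uqcrfs1 (193 to 276 CPM on chow, 136 to 176 with atorvastatin). Among the small accessory subunits, Uqcr11 fell by 43.9% (adjusted p = 3.3e-06), Uqcrq by 41.4% (adjusted p = 6.2e-08), Uqcrb by 33.8% (adjusted p = 2.5e-06), Uqcr10 by 29.3% (adjusted p = 4.9e-05) and Uqcrh by 21.2% (adjusted p = 0.0034). Uqcrh lost its call without Chow replicate 6 (−0.28, adjusted p = 0.016). Uqcrq ranged from 217 to 395 CPM on chow (median 325), from 123 to 248 on WTD (median 182) and from 104 to 212 with atorvastatin (median 162), so that no treated mouse reached the Chow range. Its estimate with the drug was 0.24 below WTD (adjusted p = 0.11). Summed, complex III gave 1778 ± 178 CPM on chow (SD, n = 10), 1171 ± 122 on WTD (n = 16) and 1233 ± 164 with atorvastatin (n = 16).

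Cytochrome c, the mobile carrier between complexes III and IV, is encoded by Cycs in liver. Its level was 67.7 to 109 CPM on chow (median 81.9), 48.4 to 88.9 on WTD (median 60.3) and 46.6 to 81.3 with atorvastatin (median 60.6). The groups overlapped, with 14 of 16 WTD mice below the lowest Chow mouse. The fall was 0.41 (SE 0.088, adjusted p = 0.00014) on the log2 scale, and the drug made a difference of −0.04 (adjusted p = 0.85). The highest Chow value came from replicate 1, the library with muscle transcripts, and without it the fall of Cycs was 0.35 (adjusted p = 0.00087).

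In complex IV the liver forms fell and the tissue-restricted isoforms were too weak to judge. Cox5b, a subunit on the matrix side, had the smallest p and ranged from 119 to 181 CPM on chow (median 160), from 62.5 to 111 on WTD (median 94.8) and from 59.8 to 108 with atorvastatin (median 89.1). Neither of the WTD-fed groups overlapped the Chow group. The fall of Cox5b was 0.76 on the log2 scale (SE 0.086, adjusted p = 1.8e-10), or 40.9%, and the drug made a difference of −0.05 (SE 0.077, adjusted p = 0.76). The 4 members with such a gap on WTD were Cox5b, Atp5c1, Atp5f1 and Atp5g3, all lower, where 2.43% of all tested genes had this gap. With atorvastatin against chow the 5 members were Uqcrfs1, Uqcrq, Cox5b, Cox7a2 and Atp5d, where 1.5% of all tested genes had it.

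Nearly as far as Cox5b, Cox7c fell by 38.3% (adjusted p = 9.3e-07) and Cox7b fell by 37.6% (adjusted p = 7.1e-07). Cox6b1, Cox6a1 and Cox8a fell by 31.5%, 30.7% and 32.0%, and Cox6c, Cox7a2 and Cox5a by 27.1%, 26.9% and 23.7%. Each of these passed the test, with adjusted p between 1.2e-07 and 0.00087. Cox7a2, the form of subunit 7a in liver, was the complex IV gene with the smallest p for the drug, with an estimate 0.21 below WTD (SE 0.087, adjusted p = 0.11), and it then lay below every Chow mouse in all 16 treated mice. None of the 13 tested genes of complex IV was called with atorvastatin against WTD, and the median was −0.07.

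Cox7a2l, a member of the Cox7a family that helps to join complexes III and IV into supercomplexes, was the exception on WTD. It ranged from 81.8 to 108 CPM on chow (median 91.7), from 80.7 to 148 on WTD (median 108) and from 82.0 to 113 with atorvastatin (median 97.6). The groups overlapped, but 15 of 16 WTD mice lay above the Chow median. Its level was 0.23 higher on the log2 scale (SE 0.070, adjusted p = 0.0051), or 17.5%. This call was not firm. Without the 9 sparse libraries it was 0.16 (adjusted p = 0.042), and leaving out Chow replicate 2, 4, 7, 8 or 10 or WTD replicate 10 gave values from 0.20 to 0.23 that no longer passed, with adjusted p up to 0.013. With atorvastatin Cox7a2l was 0.14 below WTD (adjusted p = 0.12).

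Several complex IV isoforms known from muscle, heart, lung or testis were close to absent. Cox4i2, Cox6b2 and Cox7a1 had median levels of at most 1.22 CPM in each group, and their estimates had SE of 0.62 to 0.94, so changes of this size could not be seen. The lowest log2 fold changes of the whole family, −1.40 for Cox6b2 on WTD and −0.64 for Cox4i2 with the drug, came from such counts and did not pass the test (adjusted p = 0.18 and 0.72). Cox6a2 was not tested after the filter on low counts. In Chow replicate 1 alone Cox6a2 reached 25.9 CPM, Cox7a1 12.8 and Cox8b 9.11 CPM, against at most 3.23, 3.21 and 1.15 CPM in the other 41 mice. Without this mouse the estimate for Cox7a1 on WTD went from −0.91 to 0.16 (adjusted p = 0.88). Cox7a1 made up 3.62% ± 5.54 of the counts per kb of exon of Cox7a1 and Cox7a2 on chow (SD, n = 10) and 3.06% ± 2.63 on WTD (n = 16), which a permutation test did not separate (two-sided, adjusted p = 0.94 over 4 tests). Leaving out Chow replicate 1 gave 1.93% ± 1.56 on chow (n = 9), and the difference turned from −0.56 to 1.13 percentage points (adjusted p = 0.34, permutation test).

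Cox4i1, the main form of subunit 4 in liver, had 0 counts in every mouse, as did Cox8c. The gene lies within Gm20388 (chr8:119910841-124345722), an annotated gene on the same strand that spans many others, and all 36 protein-coding genes inside Gm20388 on its strand were listed at 0. No level can be given for Cox4i1 from these counts, and no comparison with Cox4i2 was possible. Cox7b2 and Cox8b were the other genes that met the names but not the counts.

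Complex V was the most abundant. On chow Atp5a1 and Atp5b, the alpha and beta subunits of its catalytic head, had the highest medians per length of all members, 319 and 292 CPM per kb of exon. Atp5b, the catalytic beta subunit, ranged from 1045 to 1319 CPM on chow (median 1237), from 773 to 1213 on WTD (median 992) and from 898 to 1378 with atorvastatin (median 1087). Its fall on WTD was 0.29 on the log2 scale (SE 0.065, adjusted p = 0.00027), or 18.0%, and with the drug it was 0.15 above WTD (SE 0.058, adjusted p = 0.084). Atp5a1 fell by 16.8% (adjusted p = 0.0025). With the drug it ranged from 778 to 1169 CPM (median 974) against 650 to 1112 on WTD (median 838), a difference of 0.23 (SE 0.065, adjusted p = 0.011), just short of the threshold. Whether Atp5a1 passed depended on single mice: it did so in 10 of the 42 fits that leave out 1 mouse, with an adjusted p of 0.00090 without WTD replicate 15. Thus both subunits of the head fell less than the median member.

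Of the other complex V genes, 13 were also lower on WTD, and Atp5g2 and Atp5s were not called. Atp5c1, the gamma subunit of the rotor, fell by 25.7% (adjusted p = 8.5e-07) from 207 to 259 CPM on chow to 152 to 203 on WTD, without overlap. Atp5d, the delta subunit, fell by 32.3% (adjusted p = 3.2e-09) and Atp5f1, a subunit of the stator, by 27.1% (adjusted p = 1.7e-07). Atp5k, subunit e of the membrane part, fell by 46.9% (adjusted p = 0.00023), the largest fall among the members called, although its mice spread widely, from 27.2 to 91.4 CPM on chow and from 15.6 to 65.6 on WTD. Atp5h, Atp5mpl, Atp5e, Atp5j, Atp5j2 and Atp5l fell by 37.2%, 37.6%, 34.7%, 32.0%, 30.0% and 28.0%, each past the test. Atp5o fell by 41.6% (adjusted p = 0.0052), but had only 2.40 to 16.5 CPM, shares 243 exon bases with the second Atp5o identifier, and lost its call without Chow replicate 2, 3, 5 or 7 (adjusted p up to 0.017). The second Atp5o identifier failed the filter, with at most 1.06 CPM in any mouse. Atp5s, which is no part of the enzyme's core, was not called (adjusted p = 0.59).

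The 3 genes Atp5g1, Atp5g2 and Atp5g3 encode the same mature c subunit of the rotor ring with different import signals. Atp5g3 ranged from 387 to 477 CPM on chow (median 417), from 218 to 339 on WTD (median 271) and from 222 to 388 with atorvastatin (median 285). Atp5g1 ranged from 126 to 224 CPM (median 166), from 76.7 to 139 (median 96.6) and from 84.3 to 137 (median 115) in the same order. On WTD Atp5g3 fell by 36.1% (adjusted p = 1.1e-10) and Atp5g1 fell by 41.1% (adjusted p = 1.0e-10), the smallest p of the complex. Atp5g2 was 46.0 to 84.9 CPM on chow (median 60.4) and 45.2 to 80.9 on WTD (median 53.6), and its difference of −0.18 did not pass (SE 0.087, adjusted p = 0.082).

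As a share of the counts per kb of exon of the 3 genes, Atp5g3 gave 72.9% ± 2.81 on chow, 69.8% ± 1.91 on WTD and 70.0% ± 2.15 with atorvastatin (SD, n = 10, 16 and 16). The share of Atp5g1 was 12.9% ± 1.36, 11.5% ± 1.28 and 12.4% ± 0.979, and that of Atp5g2 14.1% ± 2.03, 18.8% ± 2.51 and 17.6% ± 2.08. The shares rest on all annotated exon bases, 4912 for Atp5g1, 1675 for Atp5g2 and 2181 for Atp5g3. A two-sided permutation test gave an adjusted p of 0.038 for the lower share of Atp5g1 on WTD and of 0.058 for the difference with the drug (4 tests). Without the sparse libraries the first was 0.21, with a difference of −1.14 percentage points in place of −1.47. With raw counts in place of counts per kb it was 0.059 (Atp5g1 at 25.8% on chow and 23.4% on WTD). Without Chow replicate 1 it was 0.058, with a difference of −1.26 points. Thus the shift in Atp5g1 on WTD passed a threshold of 0.05 in the full set and in none of these 3 alternatives. The shares of Atp5g2 and Atp5g3 were not tested, though that of Atp5g2 differed more, at 14.1% on chow and 18.8% on WTD.

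**Figure D3:**
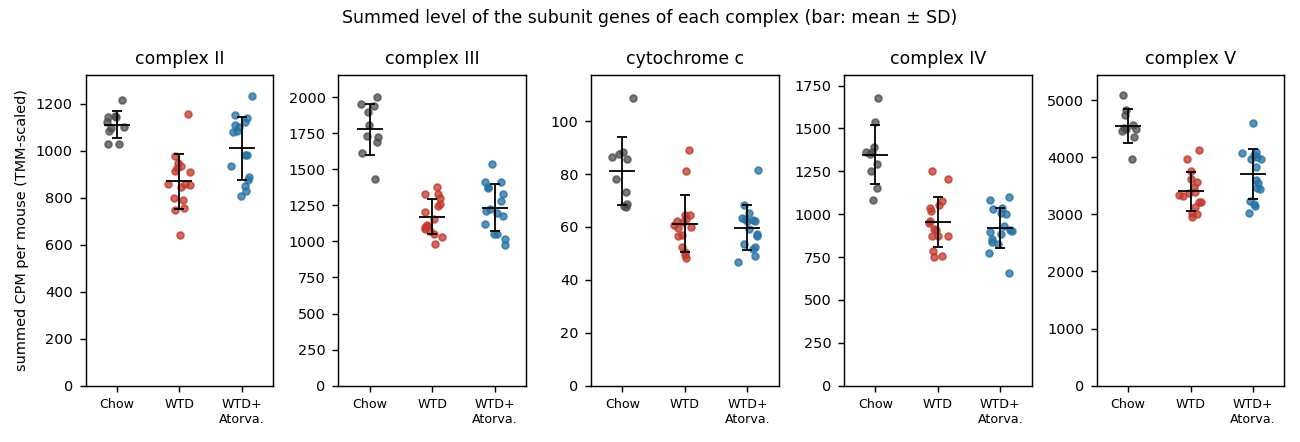
Summed level of the subunit genes of each complex in each mouse (y axis, TMM-scaled CPM from 0) by group (x axis), with mean and SD as a bar. On chow complex V sums to 4546 CPM on average, and on WTD to 3403. Complex II is the one whose mean with atorvastatin (1010) lies nearest to chow (1111).

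Summed over complex IV the level was 1347 ± 172 CPM on chow (SD, n = 10), 955 ± 145 on WTD (n = 16) and 920 ± 119 with atorvastatin (n = 16). Complex V gave 4546 ± 296, 3403 ± 338 and 3699 ± 437 CPM in the same order. These sums are led by the abundant genes and carry no test.

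Genes around the complexes moved less evenly. Of 33 tested assembly factors of complexes II to V, 10 were lower and 0 higher on WTD (median −0.34). Over all tested genes 16% were lower and 17.5% higher. The factors called lower included Fmc1, needed for complex V (−1.06, adjusted p = 9.0e-07), and the complex IV factors Cox14 (−0.47, adjusted p = 0.00081) and Coa3 (−0.43, adjusted p = 4.9e-05). With atorvastatin against WTD 1 factor (3.03%) was higher, Coa5 (0.28, adjusted p = 0.0018), where 4.84% of all tested genes were higher. Of 5 other tested subunits and regulators of complexes III to V, 3 were lower and 0 higher on WTD, where 16% of all tested genes were lower. Ndufa4 and Higd1a, both linked to complex IV, fell by 0.47 (adjusted p = 2.8e-05) and 0.70 (adjusted p = 8.2e-07). The third, Usmg5 of complex V (−0.53, adjusted p = 0.0020), was named here after its value was seen. Atpif1, the inhibitor of complex V, was not lower on WTD (0.19, adjusted p = 0.24), and it fell with the drug by 0.51 (adjusted p = 0.0010).

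The rest of the chain gave similar medians on WTD. Nuclear complex I, in a list that also holds Ndufa4, had 31 of 37 genes lower and 0 higher, with a median of −0.62, and the subunits encoded in mitochondrial DNA 9 of 12 lower, with a median of −0.61. With the drug these went different ways: of the 12 mitochondrially encoded transcripts 6 were higher and 1 lower (median 0.35), with mt-Co1 of complex IV at 0.43 (adjusted p = 6.5e-05) and mt-Cytb of complex III at 0.46 (adjusted p = 4.0e-05). The one called lower was mt-Co3 of complex IV (−0.58, adjusted p = 0.0014), and 5 of the 12 estimates lay below 0. Among them mt-Co2 of complex IV stood at −0.43 (adjusted p = 0.020) and mt-Atp6 of complex V at −0.47 (adjusted p = 0.015). All were named here after their values were seen. Mean levels of mt-Co3, mt-Co2 and mt-Atp6 were only 36.0, 29.9 and 19.3 CPM on WTD and 24.1, 22.2 and 13.9 with atorvastatin. For mt-Co1 they were 11441 and 15448 CPM. How fully reads were assigned to the weak genes was not tested. Nuclear complex I had 1 higher, Ndufs1 (0.34, adjusted p = 0.00067), and 1 lower, Ndufs4 (−0.28, adjusted p = 0.0087). Mitochondrial ribosomal proteins had 35 of 74 genes lower on WTD (median −0.32) and none called with the drug. Beside these counts, 16% of all tested genes were lower and 17.5% higher on WTD. With the drug 4.84% of all tested genes were higher and 2.26% lower.

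A list of TCA cycle genes had 5 of 17 lower on WTD (median −0.18), where 16% of all tested genes were lower. Idh3b led these (−0.55, adjusted p = 1.5e-07). The list also holds Pdha1, Pdhb, Dlat and Pcx, which act on pyruvate ahead of the cycle. With the drug 5 of 17 were higher, where 4.84% of all tested genes were, and the other 12 estimates were also above 0 (median 0.23). Citrate synthase (Cs) stood at 0.34 (adjusted p = 0.0047) and Dlat, of pyruvate dehydrogenase, at 0.53 (adjusted p = 0.0057). Complex II, an enzyme of the same cycle, was left out of this list. Among 17 regulators of mitochondrial genes 3 were lower on WTD (17.6%), close to the 16% of all tested genes that were lower. The smallest p were those of the deacetylase Sirt3 (−0.93, adjusted p = 5.3e-11) and the receptor Esrrg (−1.31, adjusted p = 3.7e-07). With the drug Sirt3 (0.40, adjusted p = 0.0015) and Yy1 (0.28, adjusted p = 0.0039) were higher, where 4.84% of all tested genes were higher. Of 24 mitochondrial genes outside respiration, taken as a reference, 9 were lower and 1 higher on WTD (median −0.17), with Clpp at −0.77 (adjusted p = 3.2e-10).

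**Figure D4:**
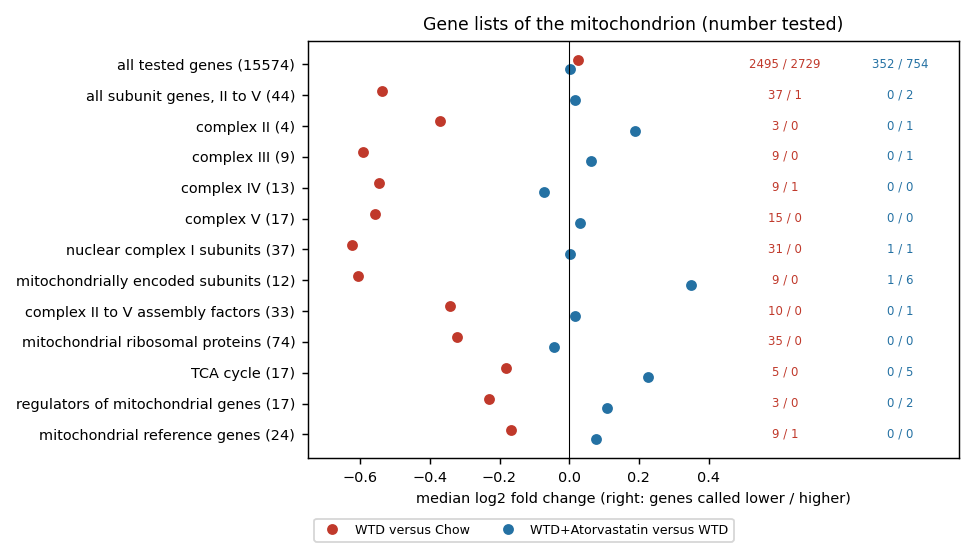
Median log2 fold change (x axis) of lists of mitochondrial genes (y axis, number tested in brackets) for WTD against Chow (red) and WTD+Atorvastatin against WTD (blue), with the genes called lower and higher at the right. The 44 subunit genes lie at −0.54 in red and 0.02 in blue. The 17 genes of the TCA cycle list, some of them acting on pyruvate, lie at −0.18 and 0.23.

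Markers of cell types moved in the same comparison. All 12 hepatocyte markers were lower on WTD (median −0.90), more than the subunit genes, and 8 of 12 were higher with the drug than on WTD (median 0.43). All 8 tested macrophage markers were higher on WTD (median 2.31), summing to 296 to 430 CPM on chow, 1223 to 2979 on WTD and 961 to 1938 with atorvastatin, and 6 of 8 of them were lower with the drug than on WTD (median −0.56). On WTD 5 of 8 stellate cell markers were higher (median 1.43), as were 6 of 6 cholangiocyte, 6 of 6 lipid-associated macrophage, 2 of 5 Kupffer cell and 3 of 4 neutrophil markers. Of the others, 0 of 6 T cell markers differed, 1 of 5 B cell and 2 of 2 striated muscle markers were lower, and 1 of 1 adipocyte markers was higher. Of 6 sinusoidal endothelial markers 3 were lower and 1 higher. The adipocyte list summed to 3.75 CPM in Chow replicate 1 and to at most 1.07 CPM in any other mouse. Over all tested genes 16% were lower and 17.5% higher on WTD, and 4.84% were higher and 2.26% lower with the drug. In B cell and muscle markers Chow replicate 1 held most of the Chow counts, with 2487 CPM of muscle markers against at most 9.07 in the other Chow mice. In a bulk sample fewer cells of a type and less RNA per cell cannot be told apart. When libraries were scaled to the 12 hepatocyte markers in place of all genes, 25 members were higher on WTD than on chow and 0 lower (median 0.35), where 64.9% of all tested genes were higher and 1.68% lower. With atorvastatin against WTD 39 were then lower and 0 higher (median −0.51), where 40.5% of all genes were lower and 0.36% higher. This scaling moved the median of all tested genes to 0.92 and −0.50. The part of the change in cell types in the fall of the subunit genes was not tested.

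Scaled to the 24 mitochondrial reference genes, 24 members were lower and 1 higher on WTD (median −0.34), where 8.8% of all tested genes were lower and 26.1% higher. The members no longer called lower were Sdhc, Sdhd, Uqcrh, Uqcr10, Cycs, Cox5a, Cox6c, Cox7a2, Atp5a1, Atp5b, Atp5j2, Atp5l and Atp5o, while Uqcrc1, Cox5b, Atp5g1 and Atp5g3 stayed lower. This scaling moved the median of all tested genes to 0.24, against 0.03.

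The subunit transcripts are short, and transcript length moved with the fold changes. Among the 44 members the principal transcript length and the log2 fold change had a Spearman rho of 0.36 for WTD against Chow and of 0.48 for WTD+Atorvastatin against WTD, across genes of the same libraries. Over the other 13585 tested protein-coding genes the values were 0.12 and 0.10. With transcripts of up to 500 bases the median was −0.83 for 5 members and −0.21 for 72 other genes on WTD, and from 1500 to 2000 bases it was −0.46 for 7 members and −0.01 for 1634 other genes. With the drug the 19 members of 1000 bases or more had a median of 0.15, and the 25 shorter ones −0.07. After the trend with length was removed in each library, 29 members were lower and 1 higher on WTD (median −0.33), where 15.9% of all tested genes were lower and 17.8% higher. With the drug 4 of the 44 members were then higher and 0 lower, namely Sdha, Uqcrc1, Cox8a and Atp5g3. Of all 15574 tested genes 1047 were called there, in either direction. The part of transcript length in these differences was not tested further.

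**Figure D5:**
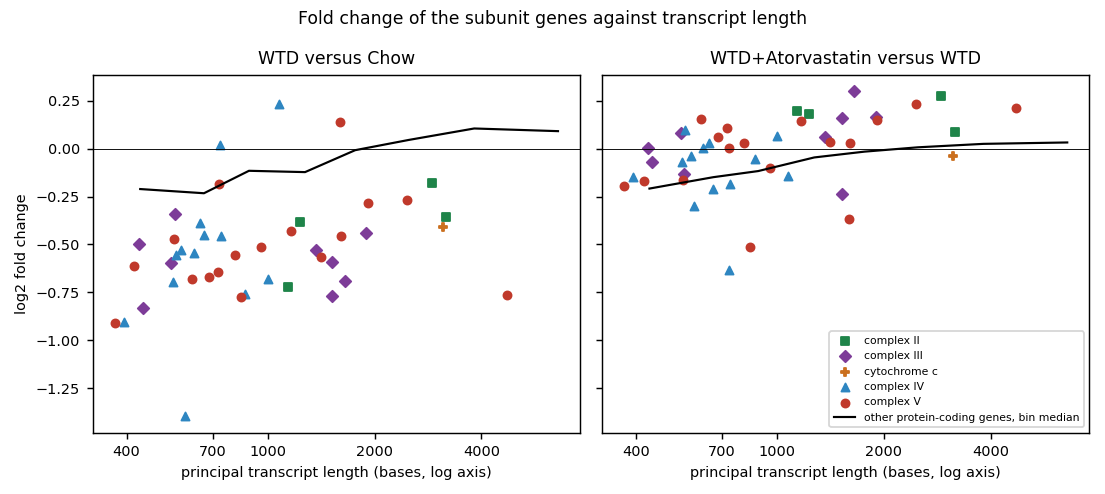
Log2 fold change of the 44 subunit genes (y axis) against the length of the principal transcript (x axis, bases, log axis) for WTD against Chow and WTD+Atorvastatin against WTD. Symbols mark the complexes and the black line joins the medians of other protein-coding genes in bins of length. On WTD most subunit genes lie below the line at every length.

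Some members share exon bases with a gene on the other strand, such as Atp5j with 397 bases of Gabpa, Uqcrc2 with 504 of Pdzd9 and Atp5a1 with 129 of Haus1. The libraries kept the strand, but the strand setting of the counting is not given in the sources used here, so reads of such pairs may not be fully apart. Processed pseudogenes of the family held few counts, at most 31 in any mouse for the 8 that met the names. Sparse libraries had summed member levels of 8583 to 9944 CPM in Chow and 6175 to 7693 in WTD, within or above the range of the other libraries of their group, and without them 37 members were lower and 0 higher on WTD.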

How the data were processed

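Liver RNA of 42 mice was sequenced, and, per the submitters' processing notes, the authors used Trimmomatic for trimming, STAR 2.5 for alignment (GRCm38) and HTSeq 0.6.1p1 for gene counts. The deposited values are raw counts, and lines without a gene (1.998 to 2.778% without feature, 5.430 to 6.568% ambiguous, 4.074 to 5.361% not uniquely aligned) were left out. Strand was kept in the libraries, but the strand setting of the counting is not given in the sources used here. Gene type, length and position come from GENCODE vM21, in which 54409 of 54446 identifiers were found.

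Counts were filtered in edgeR 4.0.16 (minimum count 10, minimum total 15), scaled by TMM and fitted with 1 quasi-likelihood model over all 3 groups, with no covariate. A gene was called at a Benjamini-Hochberg adjusted p under 0.01 over all 15574 genes. Shares of paralogs were compared by permutation tests (two-sided, 100000 resamples, adjusted over 4 tests). The alternatives were DESeq2 1.42.0, limma-voom (limma 3.58.1) with quality weights, RLE scaling, scaling to mitochondrial reference genes, no filter, 2 groups only, an adjusted p under 0.05, without sparse libraries, and leaving out each mouse. A removed length trend, scaling to hepatocyte markers and both shares on WTD without Chow replicate 1 were chosen after seeing the data. Statistics ran in R 4.3.3 and figures in matplotlib 3.10.9, tables and permutations in scipy 1.17.1, pandas 2.3.3 and numpy 2.4.6 (Python 3.11.15), and the fit was tested on simulated data.

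The members and lists were chosen with earlier results of these data known. Named were fixed members, the smallest p per complex and comparison, members called with atorvastatin or against the median, the largest and smallest fold changes and members failing a filter. The other members are given together by complex. From each other list up to 2 genes of smallest p per comparison were named, and a few more where the text says so. Each mouse is 1 animal of its group. Of the 44 tested members, 41 had a median of at least 100 counts.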

Additional observations from a re-analysis of the deposited data

Results flagged for a closer look

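In 5 of the 44 tested members, 1 Chow mouse lay farther above the other 9 than a gap test (Dixon, 95% level) allows, and chance alone gives such a gap in about 1 in 20 groups. For Atp5mpl, Chow replicate 6 had 79.22 CPM and the others 35.4 to 58.5. For Uqcrfs1, Chow replicate 2 had 276 CPM and the others 193 to 231. The same mouse had 8.303 CPM of Cox6b2, where the others had 0 to 2.82. Chow replicate 1, the library with striated muscle transcripts, had 108.9 CPM of Cycs (others 67.7 to 88.2) and 12.8 CPM of Cox7a1 (others 0 to 2.88). Groups of 16 mice were not looked at in this way.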

How the results depend on the processing

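No paired analysis was possible because the replicate numbers follow the order of deposit and the mouse numbers in the labels belong to different animals. Leaving out 1 mouse at a time gave 36 to 39 members called on WTD against Chow, 2 to 3 with atorvastatin against WTD and 33 to 34 with atorvastatin against Chow, with medians from −0.57 to −0.50, −0.002961 to 0.04128 and −0.55 to −0.50. Without WTD replicate 15, 1575 of all genes were called with the drug in place of 1106. The median with the drug fell below 0 only without WTD+Atorvastatin replicate 8.

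On WTD against Chow, 25 members were called with mitochondrial reference scaling (median −0.3389) and 25 with hepatocyte scaling (median 0.3458, against 0.920 for all genes), and without the length trend the median was −0.3329. With atorvastatin against WTD, 11 were called by limma-voom, 4 without the length trend, 3 without a filter, without sparse libraries or at an adjusted p under 0.05, and 39 with hepatocyte scaling. Of all tested genes 3118, 1047, 1365, 1664, 2021 and 6356 were called in the same order. The median was −0.02615 under DESeq2, −0.02631 under RLE, −0.03139 with reference scaling and −0.507 with hepatocyte scaling. In these 4 settings that of all genes moved with it, to −0.0416, −0.0415, −0.0510 and −0.504. Under limma-voom the member median was 0.119 and without the length trend 0.110, where that of all genes was 0.0260 and −0.0218. Against Chow the treated mice had 21 calls without the length trend (median −0.2676) and 8 with hepatocyte scaling (median −0.1606), where 3603 and 4985 of all 15574 genes were called. Cox5a turned to 0.0284 there without the length trend (adjusted p = 0.80). The Atp5g1 share on WTD was lost with raw counts (−2.338), without sparse libraries (−1.14) and without Chow replicate 1 (−1.265), and the Cox7a1 share turned to 1.126 without Chow replicate 1. Beyond each alternative's construction, the cause was not tested. The shares of Cox4i2 were not run, since Cox4i1 had no counts.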
